A study of Mus musculus with 24 samples.

Results

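The genes described here are 7 members of a group of purinergic receptor and related genes of microglia, chosen by name. They are the nucleotide receptor genes P2ry12, P2ry13, P2ry6, P2rx4 and P2rx7, the P2Y12-like receptor gene Gpr34, and Entpd1. All 7 were found among the 23871 genes of the PAPERCLIP tables and, by Ensembl identifier, among the 47069 identifiers of the RNA-seq tables. The values come from 24 mouse libraries, 15 by PAPERCLIP and 9 by RNA-seq. In cTag-PAPERCLIP, cells that express Cre make poly(A)-binding protein fused to GFP, and the mRNA crosslinked to this protein is pulled down from whole tissue with antibodies to GFP. Brain of Cx3cr1-Cre; Ctag-PABP mice gave 3 libraries after lipopolysaccharide (LPS, a bacterial cell wall component), 3 after phosphate-buffered saline (PBS) and 2 with no treatment named, called untreated here. Cortex of Ctag-PABP mice crossed to Gfap-Cre (astrocytes), Camk2a-Cre (excitatory neurons) and Gad2-Cre (inhibitory neurons) gave 2 libraries each. RNA-seq covered microglia of adult wild-type B6 mice, isolated with CD11b beads from 2 brains per tube, in 3 libraries after LPS at 1 mg/kg daily for 4 days and 3 after PBS on the same schedule. The other RNA-seq libraries are 3 of E18.5 brain cortex from Ptbp2-knockout mice, and the last PAPERCLIP library is 1 of CL57/B6J liver; none of these enters a comparison. Ages of the tagged mice and their LPS dose are not given in the labels. Border macrophages of the brain also use Cx3cr1 and CD11b, so neither route selects microglia alone.

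Damaged or active cells release ATP, ADP and UTP, and microglia sense these nucleotides through P2 receptors. The P2Y receptors are coupled to G proteins and the P2X receptors are cation channels opened by ATP, while enzymes on the cell surface break the nucleotides down. In the healthy brain microglia are known for high P2ry12, Gpr34 and P2ry13, and these genes are widely used to mark resting microglia.

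The members lie in 5 places in the GRCm38 genome, the assembly that mm10 names. P2ry12 (chr3:59216271-59262985) and P2ry13 (chr3:59207892-59210882) are 5389 bases apart, and both lie inside Med12l. P2rx7 (chr5:122643927-122692336) and P2rx4 (chr5:122707518-122729739) are 15182 bases apart, and P2rx4 overlaps Camkk2. Gpr34 (chrX:13622650-13640859) lies inside Cask. P2ry6 (chr7:100937630-100975498) overlaps no other annotated gene, and Entpd1 (chr19:40612366-40741602) overlaps the pseudogenes Gm16027 and Gm8783 and the lncRNA gene Gm41846. Annotated promoter windows, from 250 bases before to 50 bases after a transcript start, were found for 5 of the 7 members in a RefSeq table of GRCm38.p6. Those of P2ry12, P2ry13 and P2rx4 are shown because the first pair was lower and the last higher after LPS, as described below. Capitals mark AGGAAG, the core of sites bound by PU.1, a macrophage and microglia factor, and by other ETS factors.
P2ry12 promoter, chr3:59262936-59263235, minus strand: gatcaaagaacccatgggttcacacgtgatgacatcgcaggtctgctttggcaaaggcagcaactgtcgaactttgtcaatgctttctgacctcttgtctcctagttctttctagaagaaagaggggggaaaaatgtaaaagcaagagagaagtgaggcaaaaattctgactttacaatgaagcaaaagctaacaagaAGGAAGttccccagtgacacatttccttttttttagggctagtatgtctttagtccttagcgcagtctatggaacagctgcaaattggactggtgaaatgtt
P2ry13 promoter, chr3:59210833-59211132, minus strand: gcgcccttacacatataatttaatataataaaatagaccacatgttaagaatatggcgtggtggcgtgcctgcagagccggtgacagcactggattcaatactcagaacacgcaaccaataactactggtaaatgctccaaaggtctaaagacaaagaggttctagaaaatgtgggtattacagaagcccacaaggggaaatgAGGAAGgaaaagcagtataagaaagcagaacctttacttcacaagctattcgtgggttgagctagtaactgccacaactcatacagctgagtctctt
P2rx4 promoter, chr5:122707294-122707593, plus strand: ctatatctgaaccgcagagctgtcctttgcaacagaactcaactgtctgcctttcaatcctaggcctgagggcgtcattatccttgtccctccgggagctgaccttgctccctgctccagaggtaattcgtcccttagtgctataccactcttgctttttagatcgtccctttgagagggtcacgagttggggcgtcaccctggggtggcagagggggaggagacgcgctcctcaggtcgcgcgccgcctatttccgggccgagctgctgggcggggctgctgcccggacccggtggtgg
Both P2Y windows hold AGGAAG once, beginning at -52 (P2ry12) and -47 (P2ry13) from the start, and the P2rx4 window holds it on neither strand. Over both strands it was in 4 of the 7 windows of the members, against 35.4% of all 32851 windows, so these letters are common in promoters. The AP-1 motif TGANTCA was in 1 of the 7 windows, an upstream window of P2rx7, against 7.81% of all windows. A match here is a match of letters and not a measured site.

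Depth set how finely each gene could be read. Library totals were 679115 to 1041245 counts in the LPS, 266330 to 337770 in the PBS and 133456 to 154959 in the untreated Cx3cr1 libraries, against 630475 to 2005627 in the cortical libraries. The isolated microglia held 1250170 to 2133407 counts. Levels below are plain CPM, counts scaled to the library total, which compare a gene between libraries and not 1 gene with another. Counts of 12 microglial markers made up 2.29% to 3.44% of each of the 8 Cx3cr1 libraries and 0.00442% to 0.0138% of each cortical library. Astrocyte markers made up 2.44% to 2.85% of the Gfap libraries, excitatory markers 0.477% to 0.483% of the Camk2a ones and inhibitory markers 0.760% to 0.864% of the Gad2 ones. Border macrophage and monocyte markers took 0.0878% to 0.241% in the Cx3cr1 libraries. PBS PAPERCLIP replicate 3 stood apart, with 0.304% of counts on pan-neuronal and 0.197% on hepatocyte markers.

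**Figure D1:**
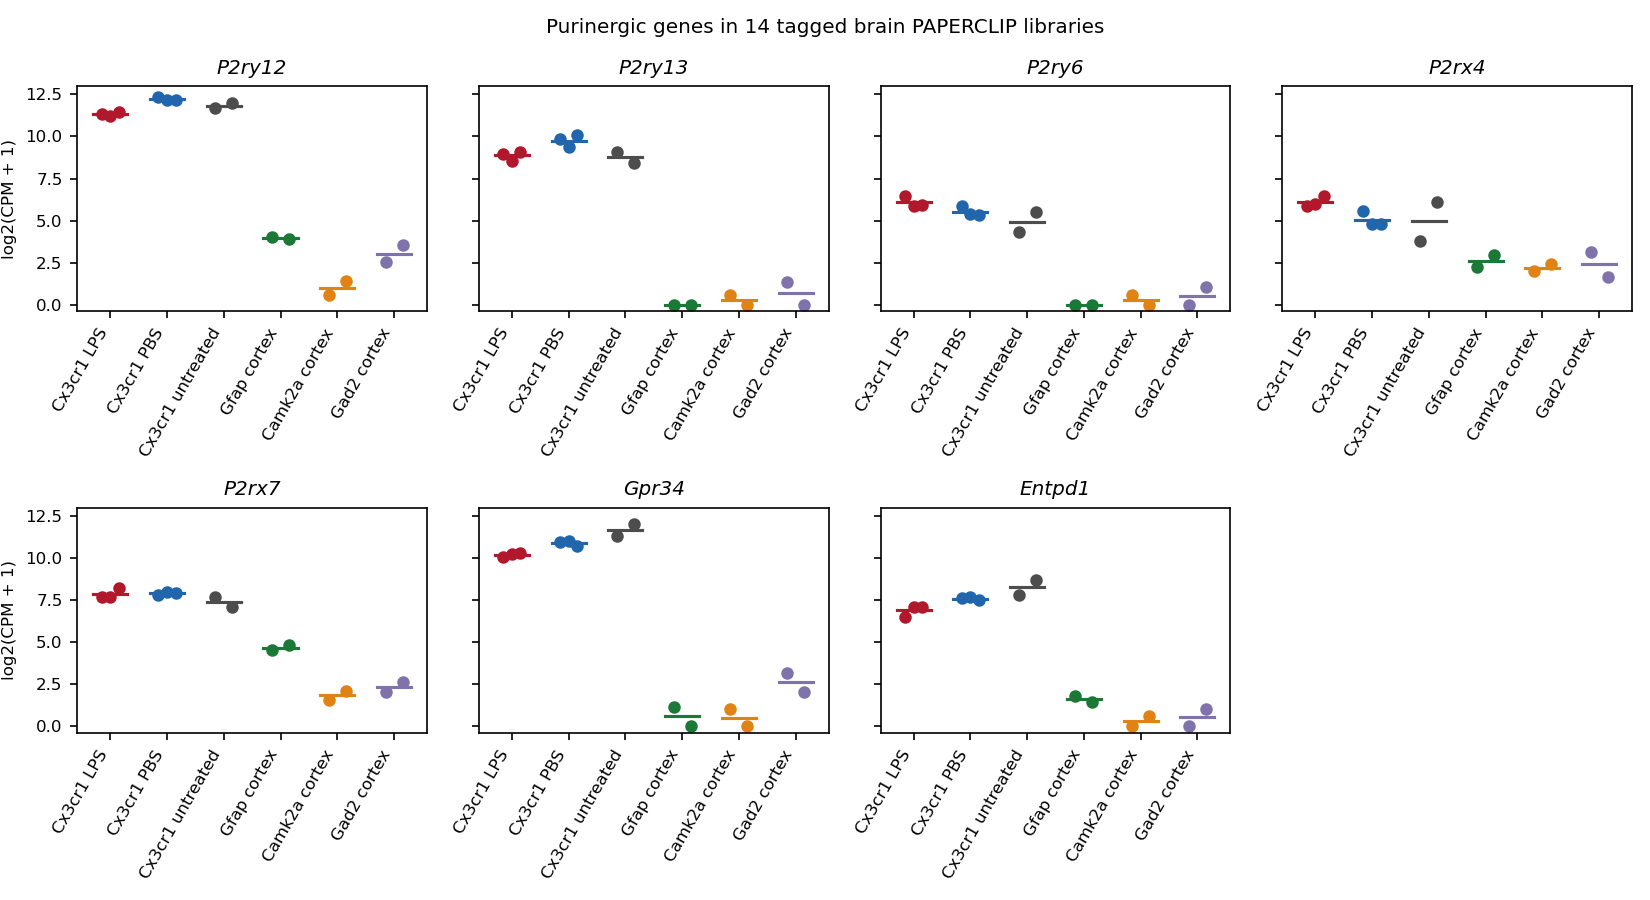
Levels of the 7 genes as log2(CPM + 1) in 14 tagged brain PAPERCLIP libraries, by group, with points for libraries and a line for the group mean. Every gene is higher in each of the 8 Cx3cr1 libraries than in each of the 6 cortical libraries. How many of all genes separate in this way was not counted.

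The first comparison asked how the genes are divided between tagged microglia and tagged astrocytes, excitatory neurons and inhibitory neurons. No group was tagged for other brain cells. The Cx3cr1 libraries are of brain and the others of cortex, so cell type and region cannot be told apart. Untreated Cx3cr1 libraries were set against the mean of the 3 cortical groups, in which 49.8% of 9421 genes passed edgeR's quasi-likelihood test at an adjusted p under 0.05, 21.8% higher in microglia and 28% lower. Of the 6 members tested, 6 were higher, with a median log2 difference of 9.07, midway between Entpd1 and P2ry12, against a median of -0.48 over all genes. P2ry6 had too few counts for the test. The filter on low counts was applied over all groups together. P2ry13, Gpr34 and Entpd1, with 2, 11 and 7 counts over the cortical libraries, passed it only through the Cx3cr1 libraries. For these 3 genes, named as genes of microglia, a higher level was close to fixed in advance and the count is no support. Fewer cells of a type and less RNA per cell cannot be told apart in such bulk samples.

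P2ry12 encodes a Gi-coupled receptor for ADP that steers microglial processes towards injured cells. It had 3278 and 4061 CPM in the untreated Cx3cr1 libraries, against 14.98 and 14.3 CPM in Gfap, 0.499 and 1.64 CPM in Camk2a and 4.76 and 10.5 CPM in Gad2 libraries. No cortical library came near the microglial level, and the log2 difference was 9.53 ± 0.27 (SE, adjusted p = 3.65e-15). Among the 6 tagged groups the mean level ran from PBS microglia at the top through untreated microglia, LPS microglia, Gfap and Gad2 to Camk2a, with no overlap between neighbours.

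P2ry13, a second Gi-coupled ADP receptor, had 549 and 345 CPM in the untreated Cx3cr1 libraries. The 6 cortical libraries held 2 counts in all, 1 from Gad2 and 1 from Camk2a, and none from Gfap. Pooled, its level was 1810 times the cortical level (exact 95% interval 491 to 15104, counting error only), and at least 386-fold higher than in Gfap libraries, taking 3 counts over that group as the limit. P2ry6, a Gq-coupled receptor for UDP that drives uptake of debris, rested on far fewer counts. It had 19.4 and 45.0 CPM in the untreated libraries, from 3 and 6 counts, against 2 counts in all 6 cortical libraries. Its pooled ratio was 124, with a counting interval of 25.7 to 1183.

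Gpr34, a Gi-coupled receptor of the P2Y12-like group that responds to lysophosphatidylserine, had 2497 and 4121 CPM in the untreated Cx3cr1 libraries. Cortical libraries held 1.25 and 0 CPM (Gfap), 0.997 and 0 CPM (Camk2a) and 7.93 and 3.16 CPM (Gad2). Its log2 difference of 11.49 ± 0.35 (SE, adjusted p = 7.62e-15) was exceeded by only 12 of the 9421 genes tested. Entpd1 encodes CD39, the surface enzyme that breaks ATP and ADP down to AMP. It had 219 and 420 CPM in the untreated libraries, against 0 to 2.50 CPM in the cortical ones, a log2 difference of 8.61 ± 0.43 (SE, adjusted p = 4.44e-12).

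Both P2X channel genes had counts in every cortical library. P2rx7, a channel that needs high ATP and engages the NLRP3 inflammasome, had 200 and 135 CPM in the untreated Cx3cr1 libraries, against 22.5 and 26.9 CPM in Gfap, 1.99 and 3.27 CPM in Camk2a and 3.17 and 5.26 CPM in Gad2 libraries. The difference was 4.73 ± 0.37 (SE, adjusted p = 4.46e-09), and the Gfap libraries stood above both neuronal groups. P2rx4, a channel opened by lower ATP and known from microglia in nerve injury pain, had 12.9 and 67.4 CPM in the untreated libraries. Cortical libraries held 3.75 and 6.86 CPM (Gfap), 2.99 and 4.36 CPM (Camk2a) and 7.93 and 2.10 CPM (Gad2). The untreated pair differed widely, on 2 and 9 counts, while the 3 cortical groups overlapped one another. The difference of 3.11 ± 0.74 (SE, adjusted p = 0.00167) shrank to 1.59 (adjusted p = 0.365) without the second untreated library.

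Within the cortical groups, 2 of the 6 members tested were higher in Gfap libraries than in the mean of both neuronal groups, where 60.5% of all genes passed, 31.3% higher and 29.3% lower. P2ry13, Gpr34 and Entpd1 passed the filter on low counts only through the Cx3cr1 libraries, which are outside this contrast. Here too, the count out of 6 cannot be set against the shares over all genes. P2rx7 was higher by 3.06 ± 0.40 on the log2 scale (SE, adjusted p = 1.59e-06) and P2ry12 by 2.46 ± 0.47 (SE, adjusted p = 0.000138). When all libraries were thinned to 133456 counts, P2rx7 kept 1.69 with an adjusted p of 0.159. In the Gfap libraries all 6 tested oligodendrocyte markers were higher too, at 0.125% and 0.956% of counts against 0.0306% to 0.0397% in the neuronal ones. Of 12 microglial markers 1 was higher and 0 lower, with a median log2 difference of -0.66 against 0 over all genes. DESeq2 called 1 higher and 1 lower. Their share was 0.0120% to 0.0130% in Gfap, 0.0104% to 0.0138% in Gad2 and 0.00442% to 0.00499% in Camk2a libraries. The part of oligodendrocytes and microglia in the P2rx7 and P2ry12 levels was not tested. Plain library totals in place of TMM scaling moved the median of all genes in this comparison to -0.21.

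Camk2a libraries were lower than Gad2 libraries for P2ry12 (log2 difference -2.83, adjusted p = 0.00845) and Gpr34 (-3.03, adjusted p = 0.0475), 2 of 6 members tested, where 21.3% of all genes passed and 9.61% were lower. These calls rested on 4 counts against 13 for P2ry12 and 2 against 8 for Gpr34. P2ry13 and Entpd1 had 1 count against 1 each. Like Gpr34, they passed the filter on low counts only through the Cx3cr1 libraries. The count out of 6 therefore cannot be set against the shares over all genes. Pooled ratios were 0.127 (exact 95% interval 0.0301 to 0.410) and 0.103 (0.0107 to 0.516). The call for P2ry12 was lost without the first Camk2a library (adjusted p = 0.105) or the second Gad2 library (0.286), and that for Gpr34 without either Gfap, either Gad2 or the second Camk2a library (0.0504 to 0.332) or with a minimum of 5 CPM (0.1001). Thinning to the smallest total ended both (0.320 for P2ry12 and 0.530 for Gpr34). Microglial markers moved the same way, with 0.00442% to 0.00499% of counts in Camk2a against 0.0104% to 0.0138% in Gad2 libraries and 2 of 12 markers lower. Their part in these calls was not tested.

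PBS injection against no named treatment served as a check of the handling. Of the 7 members, 0 passed edgeR's quasi-likelihood test, where 2.48% of 5112 genes did (0.704% higher and 1.78% lower), and 3 had an unadjusted p under 0.05. Log2 differences of PBS minus untreated were 0.90 for P2ry13 (adjusted p = 0.149), -0.86 for Gpr34 (adjusted p = 0.0919) and -0.79 for Entpd1 (adjusted p = 0.193). Levels did not overlap between the groups for these 3 genes, nor for P2ry12 and P2rx7, with differences of 0.33 and 0.43 (adjusted p = 0.441 and 0.476), and did for P2ry6 and P2rx4. How many of all 5112 genes separated in this way was not counted. With 3 against 2 libraries, the separation is therefore no result about the members. DESeq2 called 1 member, Gpr34 (adjusted p = 0.0187). Without the first untreated library, P2ry13 (adjusted p = 0.0358) and Gpr34 (0.0222) passed. Total-count scaling moved the split of calls over all genes to 40 higher and 63 lower, against 36 higher and 91 lower.

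LPS against PBS was measured in both assays. In isolated microglia all 7 members passed the test, 4 lower and 3 higher, where 26.4% of 10267 genes passed, 10.4% lower and 15.9% higher. In tagged microglia 3 of 7 passed, all lower, where 3.53% of 5692 genes passed, 0.791% lower and 2.74% higher. The median log2 difference of the members was -1.02 in RNA-seq and -0.71 in PAPERCLIP, against -0.02 and -0.01 over all genes. The genes lower after LPS were P2ry12, P2ry13, Gpr34 and, in RNA-seq, Entpd1. P2rx4, P2ry6 and, narrowly, P2rx7 were higher in RNA-seq. Below, groups are also said to overlap or not. How many of all genes separated in this way between LPS and PBS was not counted. A separation is therefore by itself no result about the members.

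**Figure D2:**
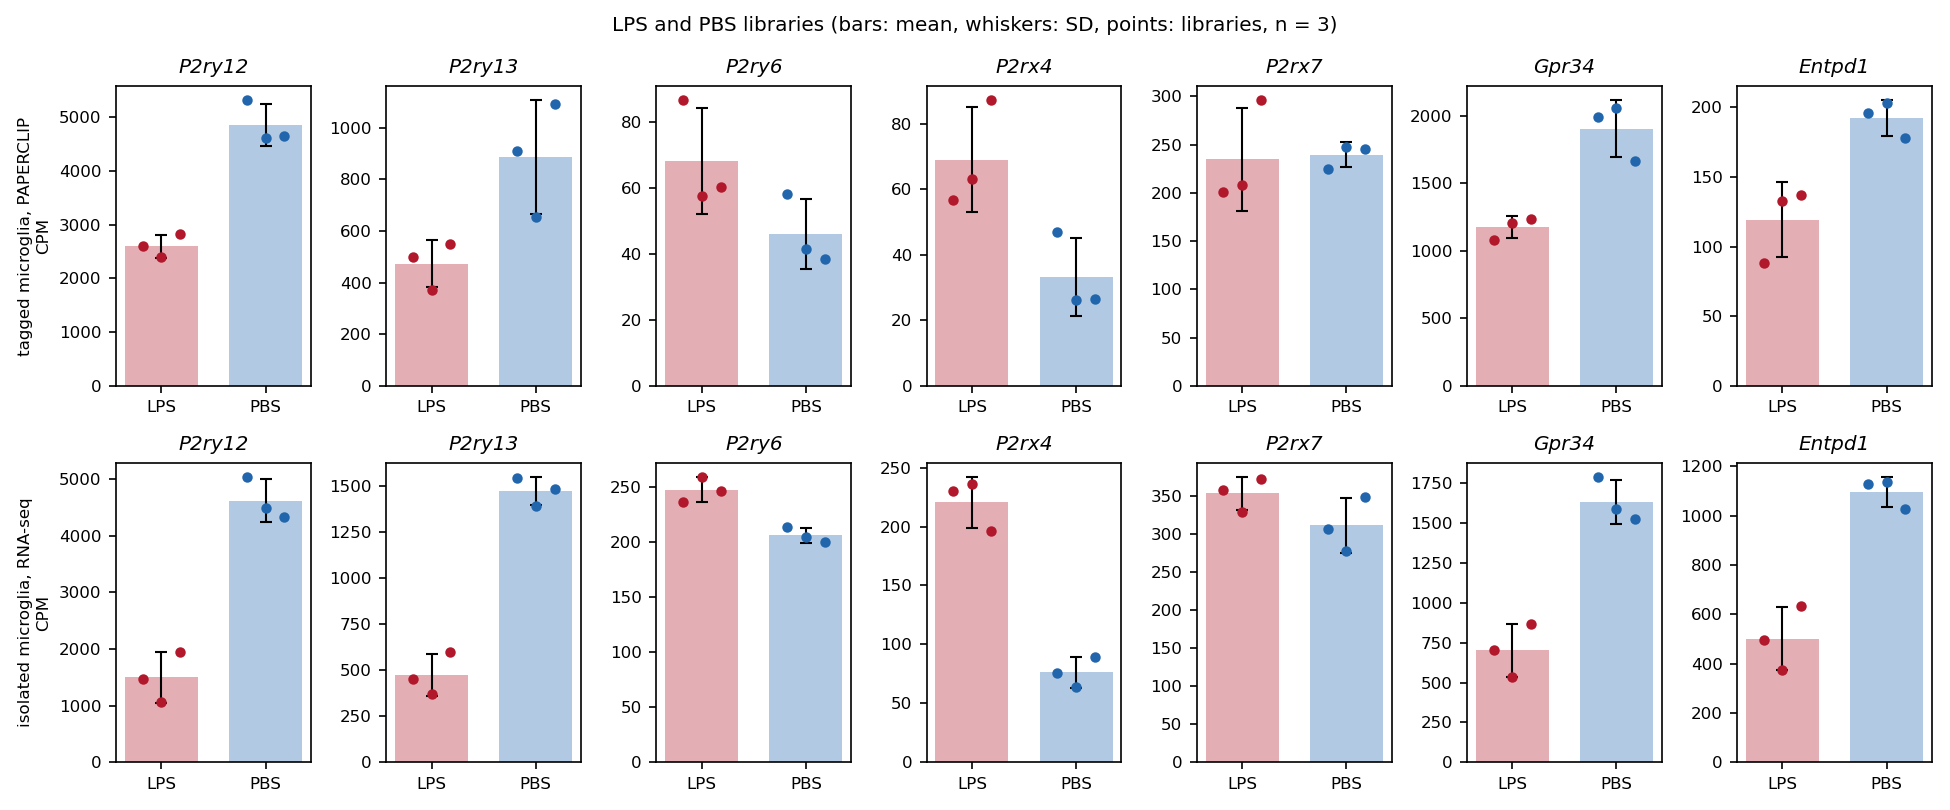
CPM of the 7 genes after LPS (left bar) and PBS (right bar) in tagged microglia by PAPERCLIP (top) and in isolated microglia by RNA-seq (bottom), with bars for means, whiskers for SD and points for 3 libraries. P2ry12, P2ry13, Gpr34 and Entpd1 are lower in every LPS library than in every PBS library of the same assay, and P2rx4 is higher in every one. How many of all genes separate in this way was not counted.

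P2ry12 had 1481, 1060 and 1956 CPM in isolated microglia after LPS, against 5041, 4493 and 4324 CPM after PBS. In tagged microglia it had 2596, 2390 and 2817 CPM after LPS, against 5314, 4611 and 4651 CPM after PBS. Groups did not overlap in either assay. It fell 2.87-fold in RNA-seq (log2 difference -1.52 ± 0.19, SE, adjusted p = 0.000102) and 1.89-fold in PAPERCLIP (-0.92 ± 0.17, adjusted p = 0.00731). The PAPERCLIP call was lost without the first PBS library (adjusted p = 0.0740). Per 100 counts of the 12 microglial markers it averaged 4.93 ± 1.06 after LPS and 11.6 ± 0.982 after PBS in RNA-seq, and 10.7 ± 0.304 and 17.6 ± 1.12 in PAPERCLIP (SD, n = 3 each). Neither pair of groups overlapped, and the exact 2-sided permutation p was 0.1 in each, the smallest that 3 against 3 allows.

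P2ry13 followed the same course. It had 451, 373 and 598 CPM in isolated microglia after LPS, against 1545, 1392 and 1487 CPM after PBS. Tagged microglia held 497, 373 and 549 CPM after LPS, against 910, 653 and 1092 CPM after PBS. The LPS groups lay wholly below the PBS groups, with log2 differences of -1.54 ± 0.15 in RNA-seq (SE, adjusted p = 1.83e-05) and -0.92 ± 0.22 in PAPERCLIP (adjusted p = 0.0321). The PAPERCLIP call was lost when any of 4 libraries was left out, PBS replicates 1 and 3 and LPS replicates 1 and 2 (adjusted p = 0.0975 to 0.148). The number of P2ry12 counts per P2ry13 count averaged 3.13 ± 0.252 after LPS and 3.13 ± 0.195 after PBS in RNA-seq (SD, n = 3 each). In PAPERCLIP it averaged 5.59 ± 0.718 and 5.72 ± 1.40, so the means differed by less than the SD in both assays (exact permutation p = 1 in each).

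Gpr34 had 704, 536 and 867 CPM in isolated microglia after LPS, against 1788, 1585 and 1523 CPM after PBS. Tagged microglia held 1080, 1207 and 1234 CPM after LPS, against 1990, 2058 and 1667 CPM after PBS. It was lower in every LPS library of each assay, by 1.11 ± 0.16 on the log2 scale in RNA-seq (log2 difference -1.11, SE, adjusted p = 0.000279) and 0.71 ± 0.18 in PAPERCLIP (-0.71, adjusted p = 0.0435). The PAPERCLIP value lay close to the threshold and its call was lost when any 1 of the 6 libraries was left out (adjusted p = 0.0606 to 0.168), with no filter on low counts (0.0720) and with a minimum of 5 CPM (0.0689). Its untreated Cx3cr1 libraries, at 2497 and 4121 CPM, stood above both treated groups.

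Entpd1 had 496, 376 and 634 CPM in isolated microglia after LPS, against 1127, 1137 and 1026 CPM after PBS, and fell 2.03-fold (log2 difference -1.02 ± 0.16, SE, adjusted p = 0.000537). Tagged microglia held 88.4, 133 and 137 CPM after LPS, against 196, 203 and 178 CPM after PBS. These groups did not overlap, but the difference of -0.71 ± 0.23 missed the threshold (adjusted p = 0.125). The labels do not say that replicate numbers pair the tagged LPS and PBS libraries, and the main test does not use such a pairing. With the replicate as a block, an alternative, Entpd1 passed (adjusted p = 0.0321), making 4 members lower, while calls over all genes numbered 424, against 201 without the block.

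P2rx4 went the other way. It had 230, 236 and 196 CPM in isolated microglia after LPS, against 75.7, 63.8 and 89.6 CPM after PBS, and rose 3.10-fold (log2 difference 1.63 ± 0.12, SE, adjusted p = 3.40e-06), more than all but 327 of the genes tested. Tagged microglia held 56.7, 63.3 and 87.2 CPM after LPS, against 47.1, 26.3 and 26.6 CPM after PBS. The groups did not overlap, and the difference of 1.04 ± 0.32 did not pass (adjusted p = 0.112). The PBS values stand on 13, 7 and 9 counts, and 26.3 CPM had an exact counting interval of 10.6 to 54.2 CPM. With no filter on low counts the adjusted p was 0.0221. Per 1000 P2ry12 counts, P2rx4 had 159 ± 61.2 counts after LPS and 16.6 ± 3.55 after PBS in RNA-seq, and 26.4 ± 4.57 and 6.77 ± 1.82 in PAPERCLIP (SD, n = 3 each). Neither pair of groups overlapped (exact permutation p = 0.1, the smallest possible). With P2rx4 higher and P2ry12 lower in every LPS library, this outcome was fixed by the levels above and is no further support.

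P2ry6 had 237, 259 and 246 CPM in isolated microglia after LPS, against 213, 205 and 200 CPM after PBS. It rose by a small amount, 0.37 ± 0.08 on the log2 scale (SE, adjusted p = 0.00653), with no overlap between groups. Tagged microglia held 86.4, 57.4 and 60.1 CPM after LPS, against 58.0, 41.3 and 38.5 CPM after PBS, where groups overlapped by 1 library and the difference of 0.57 ± 0.29 did not pass (adjusted p = 0.369).

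P2rx7 had the smallest log2 differences of the 7 members in both assays. It had 358, 329 and 372 CPM in isolated microglia after LPS, against 306, 277 and 349 CPM after PBS, overlapping groups with a log2 difference of 0.29 ± 0.10 at the threshold (SE, adjusted p = 0.0468). The call was lost with total-count scaling (0.210), with DESeq2 (0.104) and without PBS replicate 1 or 2 or LPS replicate 1 or 3 (0.0702 to 0.200). Tagged microglia held 201, 208 and 296 CPM after LPS, against 225, 248 and 246 CPM after PBS. The difference of -0.05 ± 0.21 had a 95% interval from -0.49 to 0.40 (adjusted p = 0.939), and its sign turned under 4 alternatives. Against this channel, P2rx4 had 62.9 ± 9.56 counts per 100 P2rx7 counts after LPS and 24.5 ± 1.37 after PBS in RNA-seq, and 29.4 ± 1.14 and 14.1 ± 5.92 in PAPERCLIP (SD, n = 3 each; exact permutation p = 0.1 in each, the smallest possible).

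**Figure D3:**
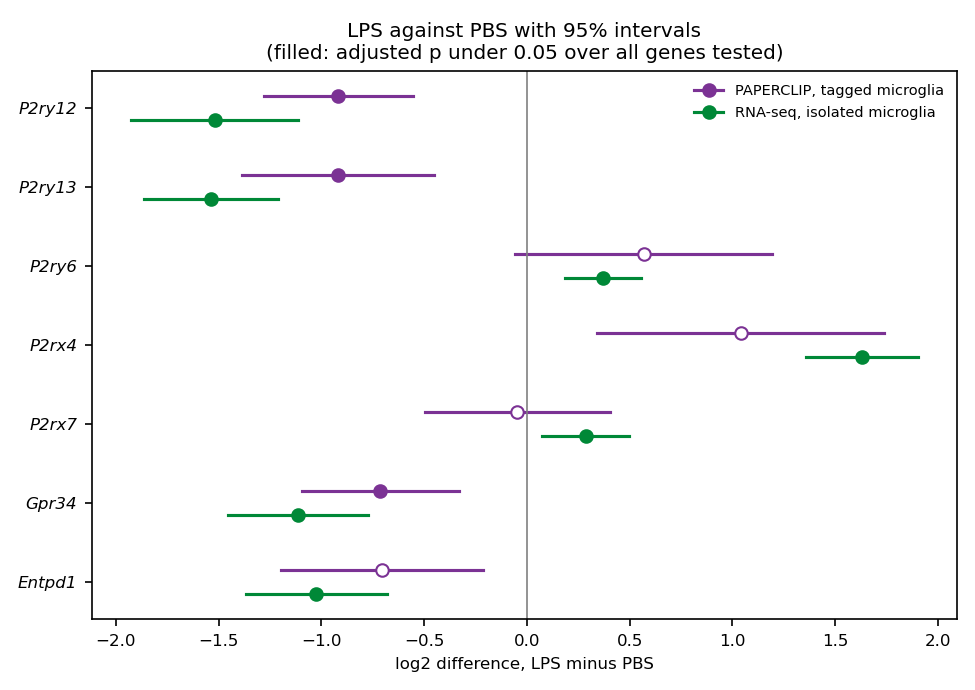
Log2 differences of LPS minus PBS with 95% intervals for the 7 genes in tagged microglia by PAPERCLIP and isolated microglia by RNA-seq, filled where the adjusted p was under 0.05. P2ry12, P2ry13, Gpr34 and Entpd1 lie below 0 and P2rx4 and P2ry6 above it in both assays.

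Whether the assays differed in these responses was tested directly. Of the 7 members, 0 passed edgeR's test of the difference between responses, where 0.00984% of 10165 genes did, and 2 had an unadjusted p under 0.05. These were P2ry12, with -0.67 on the log2 scale for RNA-seq minus PAPERCLIP (95% interval -1.20 to -0.14, adjusted p = 0.418), and P2ry13, with -0.68 (-1.25 to -0.12, adjusted p = 0.444). For P2rx4 the interval ran from -0.23 to 1.27.

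Other signals moved with the LPS groups. In isolated microglia 8 of the 12 microglial markers were lower and 2 higher, with a median log2 difference of -0.41, and together they took 2.74% to 3.27% of counts after LPS, against 3.98% to 4.01% after PBS. In tagged microglia 0 of 12 passed by edgeR or DESeq2, 3 had an unadjusted p under 0.05 by edgeR, the median was -0.25, and shares were 2.29% to 2.63% after LPS, against 2.65% to 2.83% after PBS. Platelets are known to express P2ry12 too. The 5 platelet markers, of which 1 had enough counts for the test in each assay, took 0.000844% to 0.00120% of counts after LPS, against 0.00183% to 0.00228% after PBS, in isolated microglia, and 0.00189% to 0.00398%, against 0.00622% to 0.00870%, in tagged microglia. The 1 marker tested was lower in isolated microglia by edgeR (log2 difference -0.965) and not called by DESeq2. In tagged microglia the 1 tested had -1.35, with an unadjusted p under 0.05 by edgeR, and was not called. The list is not particular to platelets, since it took 0.0301% to 0.0308% of the Camk2a libraries, where 1 of its genes, Gp1bb, averaged 303 CPM. Gp5 had 0 counts in the microglial libraries of both assays, and Ppbp 0 to 2 counts per group. Border macrophage and monocyte markers took 0.0585% to 0.0686% after LPS, against 0.0646% to 0.0934% after PBS, in isolated microglia, where 3 of 8 were higher and 2 lower. In tagged microglia they took 0.0878% to 0.118% after LPS, against 0.0939% to 0.110% after PBS, and 1 of 7 tested was higher. Endothelial markers took 0.0228% to 0.0515% after LPS, against 0.0418% to 0.101% after PBS, in isolated microglia, where 1 of 6 was lower. Neutrophil markers took 0.0662% to 0.0830%, against 0.0110% to 0.114%, there, and 0 of 6 passed. None of these 2 lists had enough counts for the test in tagged microglia. In isolated microglia lymphocyte markers took 0.00176% to 0.00291% after LPS, against 0.000114% to 0.000877% after PBS, with the 1 marker tested higher. Hepatocyte markers took 0.144% to 0.185% there, against 0.175% to 0.769%, with the 1 marker tested lower. Only 2 or 3 of the 7 hepatocyte markers had counts in each of these libraries, against 7 in the liver library and in PBS PAPERCLIP replicate 3. Their share in isolated microglia therefore cannot be read as hepatocytes. The part of other cells in the members' differences was not tested. When replicate 3 was left out of both tagged groups, which removes the PBS library with neuronal and hepatocyte transcripts, P2ry12 and Gpr34 were still called lower, while P2ry13 had an adjusted p of 0.0709. With PBS replicate 3 alone left out, P2ry12 kept its call, and Gpr34 and P2ry13 lost theirs. Plain totals shifted the median of all genes in RNA-seq to -0.12, with 1284 genes higher and 1630 lower in place of 1634 and 1072. Directions of the 7 members held there.

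Genes that overlap the members were read because reads of overlapping genes cannot be assigned without strand. Med12l, which surrounds P2ry12 and P2ry13, averaged 39.5 ± 6.60 CPM after LPS and 91.8 ± 5.55 CPM after PBS in isolated microglia (SD, n = 3 each) and was lower (log2 difference -1.10, adjusted p = 0.000106). Cask, around Gpr34, was lower as well (-1.29, adjusted p = 8.33e-05). Their part in the values of P2ry12, P2ry13 and Gpr34 was not tested. In the Cx3cr1 PAPERCLIP libraries Med12l held 0 to 22.5 CPM and had too few counts for the test, and Cask had a difference of -0.71 ± 0.35 (SE, adjusted p = 0.344), with 18.9 to 35.3 CPM after LPS and 36.2 to 50.3 CPM after PBS. Camkk2, named after its values were seen because it overlaps P2rx4, did not pass in RNA-seq (0.32, adjusted p = 0.117) or in PAPERCLIP (-0.24, adjusted p = 0.675).

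The wider pathway was read from 4 further gene lists. In the RNA-seq test of LPS against PBS, 15.9% of all 10267 genes were higher and 10.4% lower. Of 10 other P2 receptors, 2 had enough counts for the RNA-seq test and 1 rose after LPS. This was P2ry2, a Gq-coupled receptor for ATP and UTP, with 9.77 ± 2.88 CPM after LPS, against 1.69 ± 0.785 CPM after PBS (SD, n = 3 each), a log2 difference of 2.50 ± 0.44 (SE, adjusted p = 0.00138). Of 4 adenosine receptors, 2 were tested and 1 rose, the Gi-coupled Adora1, with 6.40 to 14.5 CPM after LPS, against 1.14 to 2.48 CPM after PBS (2.74 ± 0.46, adjusted p = 0.000963). Both were near the lower end of what these libraries measure.

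Of 12 genes for nucleotide release and breakdown, 6 were tested and 1 rose after LPS, Enpp1, an enzyme that cleaves ATP to AMP and pyrophosphate (log2 difference 0.83 ± 0.25, SE, adjusted p = 0.0257). Of 15 effectors, 14 were tested, 3 rose and 1 fell. The counts of both lists lie near the shares over all genes, 15.9% higher and 10.4% lower. Il1b, the cytokine released downstream of P2rx7, rose to 361 to 727 CPM after LPS, against 46.0 to 108 CPM after PBS (3.03 ± 0.29, SE, adjusted p = 1.51e-05). Pycard, the adaptor of the inflammasome, rose by 0.45 ± 0.11 (adjusted p = 0.0124), and Gnai2, a Gi subunit used by P2ry12, by 0.33 ± 0.09 (adjusted p = 0.0141). Gna11, a subunit of the Gq family, fell by 0.70 (log2 difference -0.70 ± 0.15, adjusted p = 0.00566). DESeq2 called P2ry2, Adora1, Gnai2 and Il1b and not Enpp1, Pycard or Gna11. In tagged microglia 0 of the 15 genes of these lists that were tested passed by edgeR or DESeq2, where 3.53% of all 5692 genes passed by edgeR. Of these, 2 had an unadjusted p under 0.05, including Pycard (0.79 ± 0.21, adjusted p = 0.0520).

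**Figure D4:**
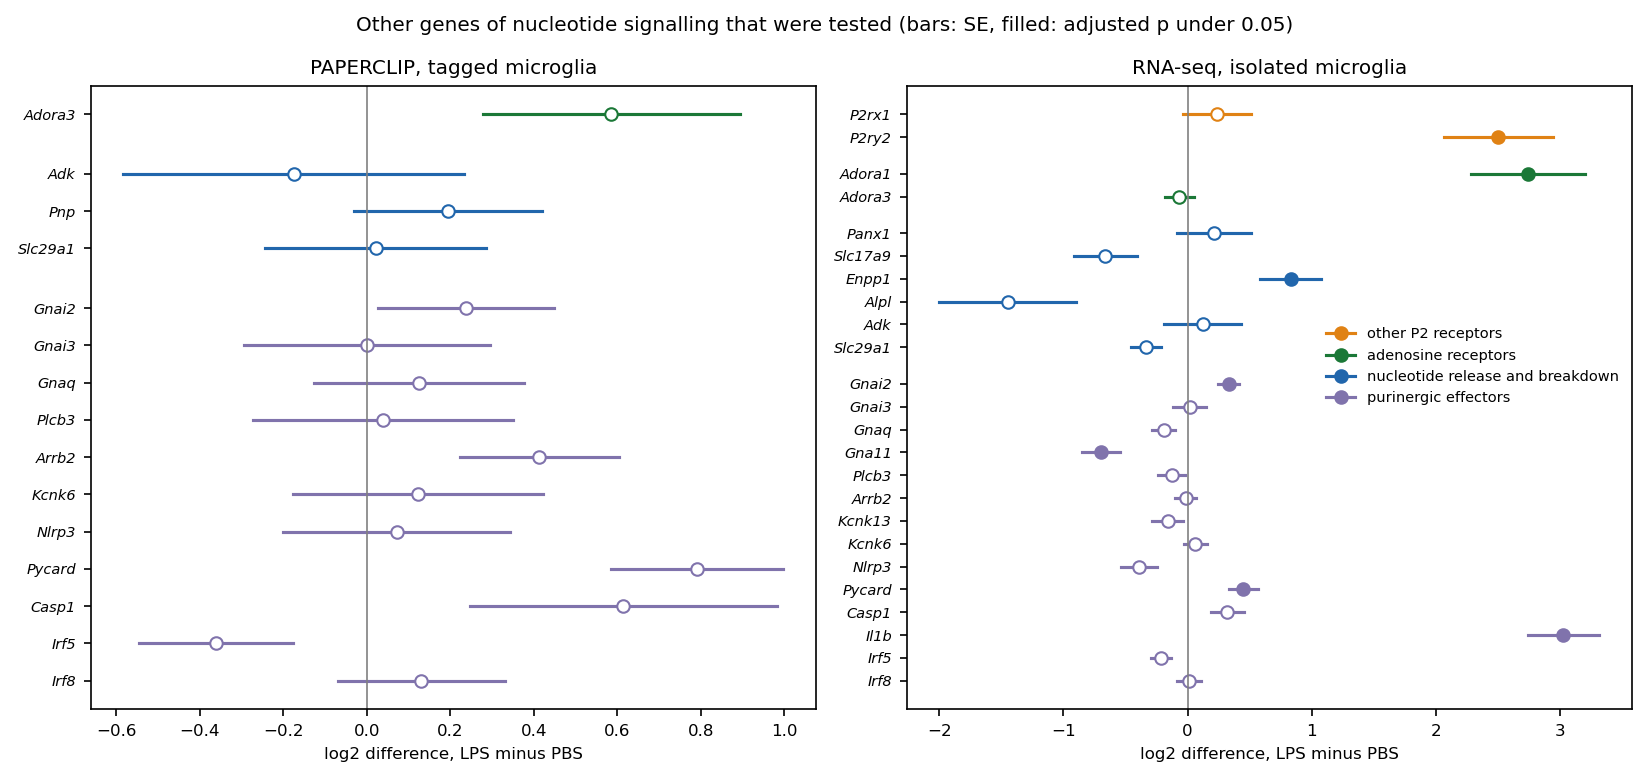
Log2 differences of LPS minus PBS with SE for the tested genes of the 4 further lists, in tagged microglia by PAPERCLIP (left) and isolated microglia by RNA-seq (right), filled where the adjusted p was under 0.05. The x axes differ in range. Filled points stand in the right panel alone, with Il1b, Adora1 and P2ry2 farthest to the right.

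Between microglia and the cortical groups, 9 of 13 tested effectors were higher and 2 lower, where 21.8% of all 9421 genes were higher and 28% lower. Irf5, a transcription factor known to drive P2rx4 in microglia, had 315 and 594 CPM in untreated Cx3cr1 libraries, against 0 to 0.546 CPM in cortical ones (log2 difference 11.46, adjusted p = 9.57e-12), and the potassium channel gene Kcnk6 followed (9.75, adjusted p = 1.11e-10). After LPS, Irf5 had a difference of -0.22 in RNA-seq (adjusted p = 0.0676). Of 5 tested genes for release and breakdown, 1 was higher, Pnp (4.45, adjusted p = 1.52e-07), whose reads may be shared with a near-identical copy, and 1 lower, Adk, the adenosine kinase (-1.86, adjusted p = 0.000507). Of 3 tested adenosine receptors 1 was lower, Adora1 (-3.14, adjusted p = 0.00103). The other 2 were Adora2a and Adora2b (adjusted p = 0.893 and 0.351). None of the other P2 receptors had enough counts for this test.

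The genes nearest to each member in pattern were found over the 14 tagged brain libraries, by the root mean square difference between centred log2 profiles, where 0 is the same profile, among 8607 genes. Such profiles are dominated by the step between microglia and cortex, and libraries share depth by group. Nearest to P2ry12 were Rnase4 (0.611), Hcls1 (0.876) and H2-Ab1 (0.897), and nearest to P2ry13 were Irf5 (0.504), Fcrls (0.519) and Ncf1 (0.561). Gpr34 was closest to Csf1r (0.568), Mpeg1 (0.573) and Cx3cr1 (0.680), and Entpd1 to Mlxipl (0.432), Itpripl1 (0.440) and Tgfbr1 (0.507). P2rx7 had Dok1 (0.313), Gal3st4 (0.393) and Soga1 (0.395), P2ry6 had Adora3 (0.372), Ctla2b (0.400) and Lgmn (0.403), and P2rx4 had Rps26 (0.443), Slc31a2 (0.499) and Rpl36al (0.517). Among the members themselves the closest pair was P2ry13 and Gpr34 (0.909), followed by P2ry12 and P2ry13 (1.09), and the most distant was P2rx4 and Gpr34 (3.46).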

How the data were processed

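The authors deposited raw counts, 1 whole number per gene and library. The submitters' processing notes name cutadapt and Novoalign (PAPERCLIP), STAR (RNA-seq) and build mm10, with versions, duplicate collapsing and strand not given in the sources used here. If duplicates remain, counts overstate the molecules seen. Intervals and the limit of 3 counts for a count of 0 cover counting error only.

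Groups came from titles. All tests across genes used edgeR 4.0.16 (quasi-likelihood, filterByExpr, TMM, Benjamini-Hochberg over all genes tested, threshold 0.05), in R 4.3.3, and every adjusted p is from it unless DESeq2 1.42.0 is named. The 3 comparisons of cell types share a fit of 8 untreated libraries. PBS against untreated used all 8 Cx3cr1 libraries, each LPS comparison its own 6 libraries, and the difference between assays 12 libraries joined by symbol. Each fit was tested on simulated data. SE belongs to the log2 difference. Labels do not call the tagged or isolated microglia libraries biological replicates, so p-values measure only how libraries vary, which may be technical. No replicate pair was the same within counting noise (chi-square per degree of freedom 2.10 to 76.9 over 19 pairs).

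The main test of LPS against PBS used group means and no pairing. Only the replicate block, an alternative, took replicate numbers to pair the tagged LPS and PBS libraries. Same-numbered libraries deviated together there (correlations 0.130, 0.240 and 0.188, others below 0). This comes from the data, not the labels. In RNA-seq 1 of 3 such correlations was under 0.1 (0.0977). Alternatives were RLE and total-count scaling, no filter or 5 CPM, thinning to the smallest total, DESeq2, a replicate block, a file-name prefix term, leaving out each library, and leaving out replicate 3 of LPS and PBS together.

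The named genes are the 7 members in every comparison, genes of the 4 further lists that passed after LPS or were the 2 with the smallest p in the microglia comparison, the host genes Med12l and Cask, and the 3 nearest genes in pattern. The members and lists were chosen with earlier results of these data known. Promoter sequences are RefSeq's.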

Additional observations from a re-analysis of the deposited data

Results flagged for a closer look

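The embryonic Ptbp2-knockout cortex, 3 RNA-seq libraries of E18.5 mice that enter no comparison and have no control here, held reads of all 7 members above the limit that a count of 0 allows. Mean levels were 9.996 CPM for P2ry12, 13.6 for Entpd1, 8.50 for Gpr34, 5.64 for P2rx4, 3.87 for P2ry13, 3.55 for P2rx7 and 0.729 for P2ry6. P2ry12 had 9.65, 8.35 and 11.98 CPM in the 3 libraries. Microglial markers took 0.0266% to 0.0333% of counts there; their part in these levels was not tested.

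The single liver library held 6 counts of P2rx4, 51.8 CPM with an exact 95% counting interval of 19.0 to 113, and no replicate. It held 0 counts of P2ry12 and 1 of Gpr34, and a count of 0 allows up to 25.9 CPM at its depth.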

How the results depend on the processing

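Over the 7 comparisons, 700 values of members were recomputed: 651 kept direction and side of the threshold, 32 lost the call, 5 gained it, 9 turned sign and 3 went to 0, the last 2 kinds all for members that were not called. The cause of these changes was not tested, apart from fewer counts or libraries where an alternative removes them. Thinning gave 2777 calls over all genes for microglia against cortex, 2282 for Gfap against neurons with 1 member, and 481 for Camk2a against Gad2 with 0 members, where 5 CPM left 1. It brought P2ry13 to 0.00 in both cortical comparisons and, for Camk2a against Gad2, P2rx7 to 1.29 and Entpd1 to 0.00. Leaving out 1 library there gave 1009 to 2649 calls and 0 to 2 members, and gave ranges of -2.42 to 1.67 for P2ry13, -1.12 to 0.77 for P2rx4 (both positive without Gad2 replicate 1) and -2.43 to 1.62 for Entpd1 (positive without Gad2 replicate 2).

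For PBS against untreated, calls over all genes were 313 with no filter, 68 at 5 CPM, 234 with DESeq2 (1 member) and 3 to 496 when 1 library was left out (0 to 2 members); P2rx4 ranged from -0.95 to 1.23, positive without untreated replicate 2. For LPS in PAPERCLIP they were 632 with no filter, 424 with the replicate block, 317 with the prefix term and 74 to 167 when 1 library was left out (0 to 2 members). P2rx7 was 0.059 with no filter and -0.23 to 0.076 when 1 library was left out, above 0 without PBS replicate 2, LPS replicate 1 or LPS replicate 2. For LPS in RNA-seq DESeq2 gave 1781 calls, and the block 2770 against 2706 with all 7 members still called; there the LPS library numbered 2 correlated best with PBS library 1 (0.108). For the difference between assays, calls were 114 with no filter, 2 thinned, 57 with the block and 1 to 37 when 1 library was left out, with 0 members throughout; DESeq2 was not run for it. Apart from Entpd1 in PAPERCLIP, the replicate block changed no call of a member. Where leaving out a library left 1 in a group, that library was assumed to vary like the others. Depth limits P2ry6 and P2rx4 most, in PAPERCLIP PBS and untreated libraries.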
